A study of Mus musculus with 9 samples.

Results

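Bile acid synthesis and its control by the bile acid receptor FXR were followed through 10 genes in mouse livers injured with acetaminophen (APAP). The genes were picked by symbol, namely Cyp7a1, Cyp8b1, Hsd3b7, Cyp27a1, Cyp7b1, Slc27a5, Baat, Nr1h4, Nr0b2 and Nr5a2, and all 10 were found among the 16857 genes of the deposited expression table. Every mouse had been injected with APAP, so no uninjured liver serves as a baseline. Wild-type mice then received saline (3 libraries) or leonurine, labelled Leo (2 libraries), and mice labelled Adipor2 knock-out received saline (2 libraries) or leonurine (2 libraries). The study asked how leonurine, an alkaloid that its title calls SCM-198, acts in drug-induced liver injury through the adiponectin receptor AdipoR2. Strain, sex, age, dose, the time between injections and sampling, and the deleted segment of Adipor2 are missing from the sources used here. The labels do not say that each library came from a separate mouse, so p-values measure the spread between these libraries, which may in part be technical.

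Hepatocytes make bile acids from cholesterol. The classical pathway starts with CYP7A1 and uses CYP8B1 to add the hydroxyl group that makes cholic acid, the alternative pathway runs through CYP27A1 and CYP7B1, HSD3B7 serves both, and SLC27A5 and BAAT join the finished acids to coenzyme A and then to taurine or glycine. When bile acids accumulate, FXR (gene Nr1h4) induces SHP (Nr0b2) in the liver and the hormone FGF15 in the ileum, and both lower Cyp7a1 and Cyp8b1 transcription, while LRH-1 (Nr5a2) binds the promoters of these genes. Cyp7a1 also follows the daily clock through DBP and related factors.

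RefSeq promoters (build GRCm38.p6, from 250 bases before to 50 after a start) were found for 6 of the 10 genes: Cyp8b1, Hsd3b7, Cyp27a1, Nr1h4, Nr0b2 and Nr5a2, the last with a pair of starts. The 250 bases before the start are shown 5′ to 3′ on the gene's strand for the 3 enzymes among them whose levels differed between genotypes under leonurine (below), and for Nr0b2, the target that reports FXR activity. Capitals mark the motif matches. The genes called in at least 1 comparison lie on GRCm38 at chr4:6265612-6275633 (Cyp7a1, minus strand), chr9:121914356-121916305 (Cyp8b1, minus), chr7:127800604-127803802 (Hsd3b7, plus), chr1:74713574-74737892 (Cyp27a1, plus), chr3:18071950-18243338 (Cyp7b1, minus) and chr7:12988346-12998192 (Slc27a5, minus).

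Cyp8b1, chr9:121916306-121916555, minus strand: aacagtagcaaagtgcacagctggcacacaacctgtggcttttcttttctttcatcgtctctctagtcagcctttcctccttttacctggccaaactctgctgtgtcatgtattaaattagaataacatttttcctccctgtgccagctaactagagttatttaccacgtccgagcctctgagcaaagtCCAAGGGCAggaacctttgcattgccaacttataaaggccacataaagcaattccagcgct

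Cyp27a1, chr1:74713285-74713534, plus strand: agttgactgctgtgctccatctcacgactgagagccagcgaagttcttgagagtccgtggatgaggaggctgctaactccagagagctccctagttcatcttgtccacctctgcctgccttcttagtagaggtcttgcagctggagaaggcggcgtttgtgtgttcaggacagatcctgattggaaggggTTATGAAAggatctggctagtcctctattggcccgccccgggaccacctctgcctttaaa

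Hsd3b7, chr7:127800359-127800608, plus strand: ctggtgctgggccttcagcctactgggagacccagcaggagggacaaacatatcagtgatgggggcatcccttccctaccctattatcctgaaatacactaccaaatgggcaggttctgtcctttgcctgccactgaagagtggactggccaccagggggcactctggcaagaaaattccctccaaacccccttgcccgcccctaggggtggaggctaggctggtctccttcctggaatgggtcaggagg

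Nr0b2, chr4:133553126-133553375, plus strand: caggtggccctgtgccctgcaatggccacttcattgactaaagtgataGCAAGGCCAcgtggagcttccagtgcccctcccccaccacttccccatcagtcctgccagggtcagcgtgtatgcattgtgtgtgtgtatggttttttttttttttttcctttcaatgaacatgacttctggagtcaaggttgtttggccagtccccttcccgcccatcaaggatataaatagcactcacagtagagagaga

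A motif search on both strands of the whole windows used the LRH-1 half-site (NCAAGGNCA). It also used the inverted repeat of the nuclear receptor half-site with 1 spacing base (IR1), which FXR binds with RXR. The last motif was an open pattern (TTANGNAA, any base at N) for the D-box, which DBP, TEF and HLF bind. The half-site was found at bases 190 to 198 of the Cyp8b1 window as CCAAGGGCA and at bases 49 to 57 of the Nr0b2 window as GCAAGGCCA, and 6.65% of the 32544 distinct promoters hold it. The open D-box pattern was matched at bases 191 to 198 of the Cyp27a1 window as TTATGAAA and in both Nr5a2 windows, against 11.5% of all promoters. Because any base may stand at N, these letters need not form a D-box. None of these windows held the inverted repeat, which is present in 0.682% of promoters, and the Hsd3b7 and Nr1h4 windows held none of the 3 motifs. No match overlapped another. A match describes letters in a window and is not a measured site.

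Values are FPKM (fragments scaled by gene length and library total), which allows levels to be compared between genes. Fold changes are differences of mean log2(FPKM + 1) between groups, given with their standard errors, and a gene was called at a Benjamini-Hochberg adjusted p under 0.05 from limma over the 10451 genes tested. The libraries held between 35316567 and 38996659 fragments. The lowest count of any of the 10 genes was 77 fragments (Cyp7a1, wild type with leonurine, replicate 2, exact Poisson 95% interval 60.8 to 96.2, counting error only). Adipor2 itself was at 125.8 to 140.8 FPKM with saline and 78.5 and 88.2 FPKM with leonurine in wild type, at 70.1 and 76.0 FPKM in the labelled knockouts given saline and at 75.7 and 85.0 FPKM in those given leonurine. Because its transcripts were still present in the labelled knockouts, these are called by their label. Both labelled-knockout leonurine libraries stood apart: 4 Y-linked transcripts summed to 17.2 to 23.8 FPKM in the other 7 libraries and to 0 and 0.00588 FPKM there, and the female-biased Cyp2b9 was at 255.4 and 171.8 FPKM there against at most 5.18 FPKM elsewhere. For every comparison that uses these libraries, leonurine or genotype and the sex of the mice cannot be told apart. Wild-type leonurine replicate 2 lay farthest out on the first principal component (52.2, against 26.4 for replicate 1 and -5.58 to -0.78 for wild type with saline), and its 10 most abundant genes took 30% of its fragments against 20.5% to 26.2% elsewhere. Defining hepatocyte transcripts were high in all libraries (6 markers, summed 33915 to 82363 FPKM). In bulk liver, fewer hepatocytes and less RNA per hepatocyte cannot be told apart.

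Cyp7a1, the rate-limiting enzyme of the classical pathway, varied most among the 10 genes, 195-fold between its highest and lowest library, against a median of 2.0-fold over all genes tested. In wild type with saline its level was 11.3, 18.2 and 7.82 FPKM, and with leonurine it was 5.31 and 0.473 FPKM. It was 19.1 and 16 FPKM in the labelled knockouts with saline and 92.3 and 28.9 FPKM with leonurine. Leonurine libraries were thus below all saline libraries in wild type and above both in the labelled knockouts, and the groups did not overlap in either genotype. The mean was 12.4 ± 5.28 FPKM (SD, n = 3) with saline and 2.89 ± 3.42 FPKM (SD, n = 2) with leonurine in wild type, a 4.31-fold lower mean that was not called (log2 difference -2.07 ± 0.62, limma adjusted p = 0.0805). It passed the threshold in 1 of 18 alternatives, the fit without leonurine replicate 1 (-3.12). Estimates over the alternatives ran from -3.12 to -1.02. The higher mean in the labelled knockouts given leonurine, 60.6 ± 44.8 FPKM (SD, n = 2), was not called against saline either (1.51 ± 0.68, limma adjusted p = 0.228). The direct comparison of the genotypes under leonurine was called: the mean was 21.0-fold higher in the labelled knockouts (log2 difference 4.11 ± 0.68, limma adjusted p = 0.00723). That call ended without labelled-knockout leonurine replicate 1 (3.29, limma adjusted p = 0.0569).

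Cyp8b1, the sterol 12-alpha-hydroxylase that sets the share of cholic acid, had a different spread. Its level was 13.1, 15.6 and 15.8 FPKM in wild type with saline and 11.1 and 6.62 FPKM with leonurine. Among the labelled knockouts, the saline libraries were at 37.2 and 6.45 FPKM and the leonurine libraries at 52.9 and 76.3 FPKM. The pair of labelled-knockout saline libraries therefore bracketed every wild-type value, while both leonurine libraries of that genotype were above all others. Under leonurine the labelled knockouts were 7.29-fold higher than wild type (64.6 ± 16.5 against 8.86 ± 3.17 FPKM, SD, n = 2 each), and this difference was called (log2 2.75 ± 0.60, limma adjusted p = 0.0187). It was no longer called without wild-type leonurine replicate 2 (limma adjusted p = 0.103) or either labelled-knockout leonurine library (0.0759 and 0.0734), and held in 13 of 17 alternatives. The response to leonurine within the labelled knockouts missed the threshold (1.94 ± 0.60, limma adjusted p = 0.121). It passed in 1 of 17 alternatives, the fit without saline replicate 1 (3.12), and estimates ran from 0.76 to 3.12. The wild-type response was -0.72 ± 0.54 (limma adjusted p = 0.461). The ratio of Cyp8b1 to Cyp7a1 FPKM was 1.16, 0.856 and 2.02 in wild type with saline, 2.09 and 14.0 with leonurine, and between 0.403 and 2.64 in the 4 labelled-knockout libraries.

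Hsd3b7, the dehydrogenase that oxidises the sterol ring in both pathways, had a narrower range, 2.01-fold between its highest and lowest library. It was at 93.8, 135.7 and 104.4 FPKM in wild type with saline, at 91.9 and 74.5 FPKM with leonurine, at 107.5 and 105.3 FPKM in labelled knockouts with saline and at 137.3 and 149.5 FPKM with leonurine. The 2 highest of the 9 values were the labelled-knockout leonurine libraries, and the 2 lowest were wild-type leonurine. The genotypes differed under leonurine (log2 0.78 ± 0.21, limma adjusted p = 0.0426), but this call held in 5 of 17 alternatives. It ended when any 1 library other than wild-type saline replicate 2 or wild-type leonurine replicate 1 was left out (0.0584 to 0.161). The exons of Hsd3b7 overlap 9430064I24Rik on the opposite strand over 62.4% of their length and Gm49388 on the same strand over 62%, and the sources do not say whether strand was used in counting, so its level is uncertain.

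**Figure D1:**
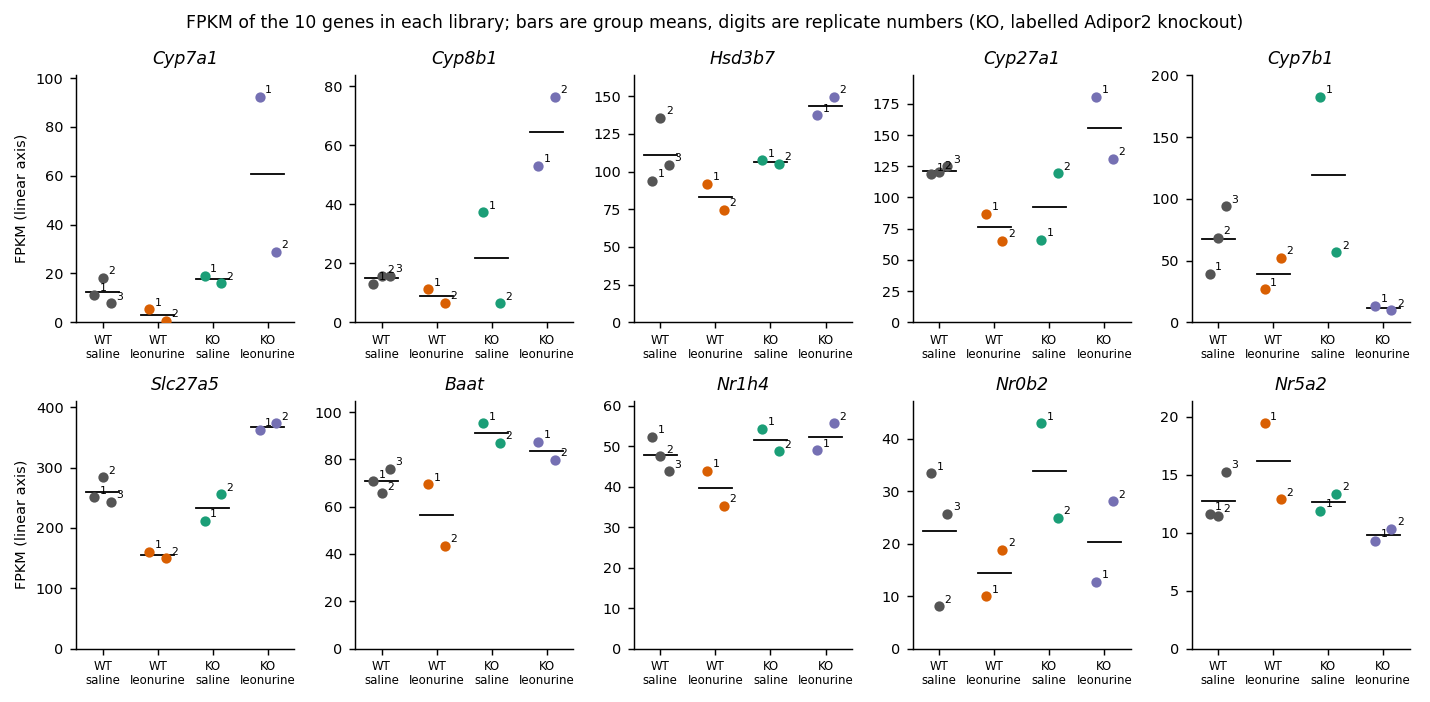
FPKM (linear axis) of the 10 genes in each of the 9 libraries, 1 panel per gene, with replicate numbers at each library's value and bars for group means. In wild type Cyp7a1 runs from 7.82 to 18.2 FPKM with saline and from 0.473 to 5.31 FPKM with leonurine, and in the labelled knockouts given leonurine Cyp7b1 is at 13.4 and 9.76 FPKM, its 2 lowest values.

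In the alternative pathway both labelled-knockout leonurine libraries were above saline for Cyp27a1 and below it for Cyp7b1, and Cyp7b1 alone was called. Cyp27a1, the mitochondrial sterol 27-hydroxylase, was at 118.6, 120.0 and 125.1 FPKM in wild type with saline and 86.9 and 65.2 FPKM with leonurine. Labelled knockouts gave 66.3 and 119.3 FPKM with saline and 180.5 and 131.2 FPKM with leonurine. The wild-type saline values were tight, whereas the labelled-knockout saline values spanned the range from wild-type leonurine to wild-type saline. Neither response to leonurine was called (wild type -0.68 ± 0.26, limma adjusted p = 0.151, labelled knockouts 0.78 ± 0.29, limma adjusted p = 0.161). Under leonurine the labelled knockouts were 2.05-fold higher than wild type (log2 1.02 ± 0.29, limma adjusted p = 0.0475), a call at the edge of the threshold that held in 6 of 17 alternatives and ended without any 1 of the wild-type saline libraries, wild-type leonurine replicate 2 or either labelled-knockout leonurine library (limma adjusted p between 0.0529 and 0.236).

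Cyp7b1, the oxysterol 7-alpha-hydroxylase, which is known to be expressed more in male than in female mouse liver, was the only 1 of the 10 genes called in the labelled knockouts after leonurine. It was at 39.3, 68.6 and 93.9 FPKM in wild type with saline, 26.5 and 52.2 FPKM with leonurine, 182.4 and 56.8 FPKM in labelled knockouts with saline and 13.4 and 9.76 FPKM with leonurine. The 2 labelled-knockout leonurine libraries were the lowest of all 9, and the wild-type groups overlapped. The mean fell from 119.6 ± 88.8 FPKM to 11.6 ± 2.57 FPKM (SD, n = 2 each), 10.3-fold (log2 -3.05 ± 0.56, limma adjusted p = 0.026). These are the libraries without Y-linked transcripts, so leonurine and sex cannot be told apart for this gene. The call held in 9 of 17 alternatives. It ended, among others, without labelled-knockout saline replicate 1 (-2.21, limma adjusted p = 0.138) or either labelled-knockout leonurine library (0.0668 and 0.105), and under median-ratio scaling (0.0501), quantile normalization (0.0567), array weights (0.0747) and no filter on low values (0.0894). The wild-type estimate was -0.75 ± 0.51 (limma adjusted p = 0.403). The ratio of Cyp7b1 to Cyp27a1 FPKM was 0.0742 and 0.0744 in the labelled-knockout leonurine libraries and between 0.305 and 2.75 in the other 7.

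For conjugation, Slc27a5, the bile acid CoA ligase, was called in 3 of the 5 comparisons. It stood at 250.5, 283.8 and 243.7 FPKM in wild type with saline, at 160.8 and 149.7 FPKM with leonurine, at 212.0 and 255.4 FPKM in labelled knockouts with saline and at 362.8 and 373.3 FPKM with leonurine. The leonurine libraries were thus the lowest in wild type and the highest in the labelled knockouts, with no overlap with saline. In wild type the mean was 259.3 ± 21.4 FPKM (SD, n = 3) with saline and 155.2 ± 7.86 FPKM (SD, n = 2) with leonurine, 1.67-fold lower (log2 -0.73 ± 0.17, limma adjusted p = 0.0368). This was the only call among the 10 genes in wild type, and it held in 9 of 18 alternatives. The call was lost with only the groups compared (limma adjusted p = 0.0537), no filter on low values (0.0574) or the replicate block (0.0942). It ended under median-ratio scaling (-0.58, limma adjusted p = 0.0628), under quantile normalization (-0.39, 0.243), and without any 1 of the wild-type saline libraries (0.0935, 0.160 and 0.114) or wild-type leonurine replicate 2 (0.146). For the labelled knockouts the estimate was 0.66 ± 0.19 (limma adjusted p = 0.103), and it was called under median-ratio scaling (0.87, limma adjusted p = 0.0437). The responses of the genotypes differed by 1.39 ± 0.25 on the log2 scale (limma adjusted p = 0.0218), the only such difference called among the 10 genes. This call held in 9 of 16 alternatives and was lost with the replicate block (limma adjusted p = 0.0632), among others. It ended without any 1 of the wild-type saline libraries (0.0553, 0.0782 and 0.0618), labelled-knockout saline replicate 1 (0.0779) or labelled-knockout leonurine replicate 1 (0.0522), and under quantile normalization (0.0599). Under leonurine Slc27a5 was 2.37-fold higher in the labelled knockouts (log2 1.24 ± 0.19, limma adjusted p = 0.00469), a call held in 16 of 17 alternatives.

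Baat, which transfers the acyl group to taurine or glycine, was not called with all libraries in any comparison. It was at 70.7, 65.6 and 75.9 FPKM in wild type with saline, 69.5 and 43.5 FPKM with leonurine, 95.2 and 86.9 FPKM in labelled knockouts with saline and 87.4 and 79.9 FPKM with leonurine. All 4 labelled-knockout libraries were above all 5 wild-type libraries, with an estimate of 0.36 ± 0.20 under saline (limma adjusted p = 0.47) and 0.59 ± 0.22 under leonurine (limma adjusted p = 0.117). The response to leonurine in wild type was -0.35 ± 0.20 (limma adjusted p = 0.322). That response passed the threshold in 1 of 18 alternatives, the fit without wild-type leonurine replicate 1 (-0.69), and estimates ran from -0.69 to -0.022. The difference between genotypes under leonurine passed in 1 of 17, the same fit (0.93), and estimates ran from 0.26 to 0.93.

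None of the 3 control receptors was called in any comparison. Nr1h4, which encodes FXR, was the steadiest of the 10 genes at 1.58-fold between extremes. Its levels were 52.3, 47.5 and 43.8 FPKM in wild type with saline, 43.9 and 35.3 FPKM with leonurine, 54.3 and 48.7 FPKM in labelled knockouts with saline and 49.0 and 55.6 FPKM with leonurine. The groups overlapped except between genotypes under leonurine (0.40 ± 0.18, limma adjusted p = 0.183), and the response to leonurine in the labelled knockouts was 0.02 with a 95% interval of -0.38 to 0.43. Nr0b2, the FXR target SHP, overlapped between groups in every comparison. It was at 33.4, 8.09 and 25.7 FPKM in wild type with saline, 9.98 and 18.9 FPKM with leonurine, 43.0 and 24.9 FPKM in labelled knockouts with saline and 12.7 and 28.1 FPKM with leonurine. Its estimates for leonurine were -0.46 ± 0.56 in wild type and -0.76 ± 0.61 in the labelled knockouts (limma adjusted p = 0.666 and 0.481), with 95% intervals that allow changes from -1.71 to 0.79 and from -2.13 to 0.61. Nr5a2, which encodes LRH-1, was at 11.6, 11.5 and 15.2 FPKM in wild type with saline, 19.4 and 12.9 FPKM with leonurine, 11.9 and 13.4 FPKM in labelled knockouts with saline and 9.30 and 10.3 FPKM with leonurine. The labelled-knockout leonurine libraries were the lowest of all 9, and the estimate against wild type under leonurine was -0.64 ± 0.21 (limma adjusted p = 0.0842). It was called lower under median-ratio scaling (0.0305), under quantile normalization (0.0251) and without wild-type leonurine replicate 2 (0.0451).

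Across the 10 genes, leonurine in wild type gave 9 estimates below 0 and 1 above, with 1 gene called lower, against 4.72% of all genes tested called lower, 1.9% called higher and 6.62% in all. The groups did not overlap in 5 genes, all lower in leonurine, where 34.2% of all genes tested had this pattern and 47% did not overlap in either direction. The median log2 difference was -0.57 for the 10 genes and -0.12 for all genes tested. Median-ratio scaling moved the median of all genes to 0.00 and the split of all calls from 199 higher and 493 lower to 342 and 416.

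In the labelled knockouts leonurine gave 6 estimates above 0 and 4 below, with 1 gene called lower against 1.49% of all genes called lower, 0.603% called higher and 2.1% in all. Groups did not overlap in 5 genes that were higher and 2 that were lower, where the shares over all genes were 8.61% and 40.8% (49.4% in all). The median was 0.22 for the 10 genes and -0.19 for all genes. Median-ratio scaling moved the latter to -0.02 and the calls over all genes from 63 higher and 156 lower to 116 and 91. Under that scaling the single call among the 10 genes changed from Cyp7b1, lower, to Slc27a5, higher. The test of the difference between the 2 responses called 1 gene higher, against 1.71% of all genes higher, 2.03% lower and 3.74% in all. Median-ratio scaling moved that split from 179 and 212 to 368 and 232. For Cyp7a1 this difference was 3.58 ± 0.92 (limma adjusted p = 0.0673), and for Cyp27a1 it was 1.46 ± 0.39 (0.072). Each of these was called under at least 1 alternative, Cyp7a1 for example under median-ratio scaling (0.0482) and without wild-type leonurine replicate 1 (0.0117).

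With saline alone, limma called none of the 10 genes between labelled knockouts and wild type and none had an unadjusted p under 0.05. Over all genes tested 0.0191% were called, 0.00957% higher and 0.00957% lower. Only Baat separated the groups, being higher in the labelled knockouts, where 38.7% of all genes did not overlap (27.6% higher, 11.1% lower). Under leonurine 5 genes, namely Cyp7a1, Cyp8b1, Hsd3b7, Cyp27a1 and Slc27a5, were called higher in the labelled knockouts and none lower, against 6.99% of all genes called higher, 5.25% lower and 12.2% in all. Groups did not overlap in 7 genes that were higher and 2 that were lower, against 25.6% and 26.4% of all genes (52.1% in all). The median was 0.69 for the 10 genes and 0.01 for all. This comparison and the leonurine response of each genotype share libraries, so that their values are not independent. Leaving out 1 library at a time gave between 1 higher call (without labelled-knockout leonurine replicate 1) and 6 (without wild-type leonurine replicate 1). There were 2 higher calls without labelled-knockout leonurine replicate 2, and 3 without wild-type saline replicate 1 or 3. Without wild-type leonurine replicate 2 there were 2 higher and 1 lower (Nr5a2), and without either labelled-knockout saline library 4 higher and 1 lower, which was Cyp7b1 (limma adjusted p = 0.0479 and 0.0481).

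**Figure D2:**
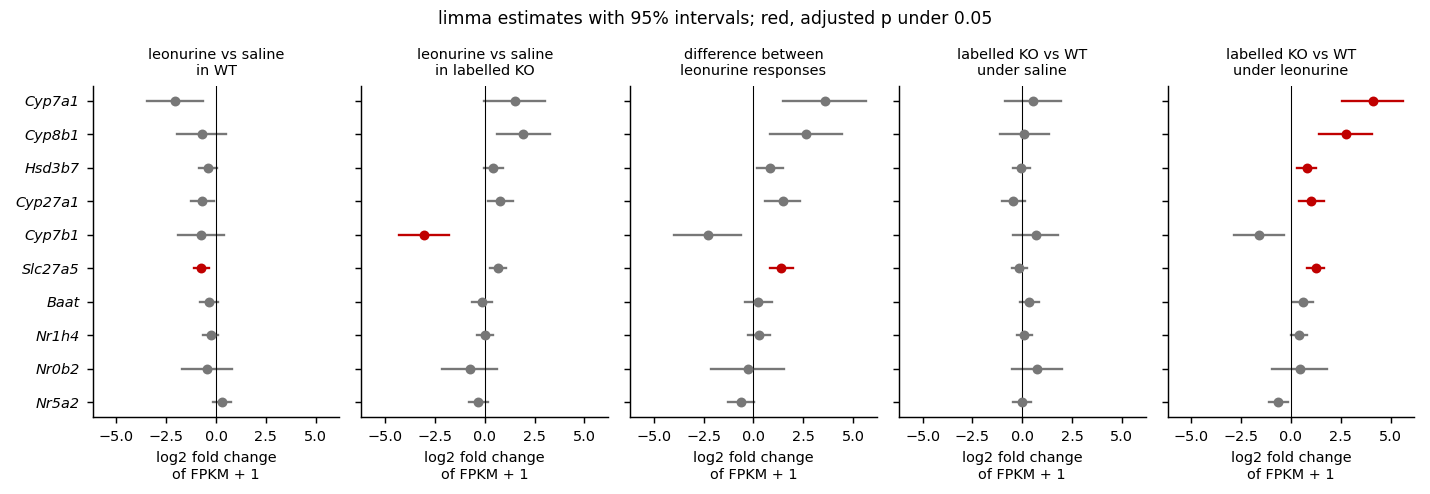
Log2 differences of the 10 genes in the 5 comparisons, with 95% intervals from limma and genes in red where called at an adjusted p under 0.05. Under leonurine 5 genes are called higher in the labelled knockouts, and under saline none is called.

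Markers of hepatocytes and of other liver cells also differed between these samples. With leonurine in wild type 4.72% of all genes tested were called lower and 1.9% higher. Between genotypes under leonurine these shares were 5.25% and 6.99%. Summed over the 6 hepatocyte markers, wild type gave 66636 to 73422 FPKM with saline and 33915 to 57274 FPKM with leonurine, and the labelled knockouts gave 62824 to 64029 and 80306 to 82363 FPKM. Of the 6 markers, 1, namely Ttr (transthyretin), was called lower by leonurine in wild type (-1.20, limma adjusted p = 0.0385) and higher in labelled knockouts than in wild type under leonurine (1.38, 0.0208). Most of that sum is Alb (albumin, 26493 to 67808 FPKM), which was called in neither comparison (limma adjusted p = 0.171 and 0.0916). Apoa1 and Cps1 moved as Alb did. In wild type with saline, wild type with leonurine and labelled knockouts with leonurine, Apoa1 averaged 7247, 5305 and 8389 FPKM. In the same order Cps1 averaged 857.6, 695.1 and 947.4 FPKM. Tat followed Alb in wild type (853.6 and 733.3 FPKM) but was lower in the labelled knockouts with leonurine (590.9 FPKM). Serpina1a was not lower with leonurine in wild type (766.6 and 818.3 FPKM). It was higher in the labelled knockouts with leonurine (864.0 FPKM). None of these differences was called. Summed over 6 neutrophil markers, levels were 8.88 to 43.8 FPKM in wild type with saline and 61.9 to 139.5 FPKM with leonurine, and 5.56 to 13.5 and 24.9 to 59.7 FPKM in the labelled knockouts, and 2 of the 4 tested (Ngp and Ltf) rose in wild type. Ngp also rose in the labelled knockouts (1.98, limma adjusted p = 0.0429), where 0.603% of all genes tested were called higher. This call held in 6 of 16 alternatives. The 6 cholangiocyte markers summed to 62.2 to 93.6 FPKM and 59.2 to 152.6 FPKM in wild type and to 65.8 to 66.6 and 42.9 to 43.5 FPKM in the labelled knockouts, and 1 of 3 tested (Sox9) rose with leonurine in wild type (1.08, limma adjusted p = 0.0308). Under leonurine Sox9 was lower in the labelled knockouts than in wild type (-1.46, limma adjusted p = 0.00923), a call that held in 14 of 16 alternatives. The calls of Ttr and Sox9 in wild type held in 6 of 18 and 11 of 17 alternatives. Of 5 sinusoidal endothelial markers, which summed to 63.2 to 89.7 FPKM over all libraries, Lyve1 rose with leonurine in wild type (0.75, limma adjusted p = 0.0198, 13 of 18 alternatives). Between genotypes under leonurine Lyve1 was lower (-0.998, limma adjusted p = 0.00589, 16 of 17) and Kdr higher (0.70, 0.0261, 9 of 17) in the labelled knockouts. None of the Kupffer cell or stellate cell markers was called in wild type or between genotypes under leonurine. The part of these markers in the results for the 10 genes was not tested. The ileal genes Fgf15 and Fabp6 were looked for by symbol and are not among the genes of the deposited expression table.

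The rest of the synthesis pathway was described by 17 further enzymes, of which 15 passed the filter. In wild type their median for leonurine was -0.67, against -0.12 for all genes tested. Where 4.72% of all genes tested were called lower and 1.9% higher, 5 of the 15 fell and none rose. They were Abcd3, the peroxisomal transporter of fatty acyl groups (-1.46 ± 0.25, limma adjusted p = 0.0125), Fdx1, the ferredoxin that passes electrons to mitochondrial P450 enzymes (-1.03, 0.0228), the steroid 5-beta-reductase Akr1d1 (-1.45, 0.0355), and the hydroxysteroid dehydrogenases Akr1c14 (-1.75, 0.0357) and Akr1c6 (-1.75, 0.0416). The last pair are close paralogs that can share fragments, so their separate levels are uncertain. Without wild-type leonurine replicate 2, or without wild-type saline replicate 2 or 3, none of the 15 was called, and without wild-type leonurine replicate 1 it was 9. None was called in the labelled knockouts, and the smallest p was that of Scp2, the peroxisomal thiolase (-1.07 ± 0.23, limma adjusted p = 0.05, just over the threshold). Between genotypes under leonurine the median was 0.62 for the 15 and 0.01 for all genes tested. Of all genes 6.99% were called higher and 5.25% lower. Of the 15, 4 were higher in the labelled knockouts than in wild type, led by Akr1d1 (2.04 ± 0.36, limma adjusted p = 0.00948). Without labelled-knockout leonurine replicate 1 none of them was called.

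Other regulators of the pathway were mostly below the threshold. Of 19 tested none was called in response to leonurine in either genotype, and the smallest p in wild type belonged to Nr2f2, the nuclear receptor COUP-TFII (-0.63, limma adjusted p = 0.0885). Between genotypes under leonurine 6.99% of all genes tested were called higher and 5.25% lower. The labelled knockouts were higher there for Nr1i3, the xenobiotic receptor CAR (1.21, limma adjusted p = 0.0457), and for Klb, the co-receptor that hepatocytes need for FGF15 (0.92, 0.047). These calls held in 7 and 6 of 17 alternatives, and ended among others without wild-type leonurine replicate 2 (0.209 and 0.219) or labelled-knockout leonurine replicate 1 (0.245 and 0.150).

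Of 10 tested genes that FXR is known to induce in liver, 1 rose and 1 fell with leonurine in wild type. The shares over all genes tested were 1.9% called higher and 4.72% called lower. The median of the 10 was -0.06, which became 0.07 under median-ratio scaling. Fgb, a fibrinogen chain and also an acute-phase protein, rose (1.74, limma adjusted p = 0.0198), and Abcc2, the canalicular conjugate export pump, fell (-1.20, 0.0293). These calls held in 12 and 11 of 18 alternatives, and ended among others without wild-type leonurine replicate 2 (0.0973 and 0.195). In the labelled knockouts the phospholipid transfer protein Pltp rose with leonurine (1.05 ± 0.15, limma adjusted p = 0.00647), where 0.603% of all genes tested were called higher. Its response differed between genotypes (1.21 ± 0.20, limma adjusted p = 0.0151), against 1.71% of all genes called higher. The Pltp response in the labelled knockouts held in 15 of 17 alternatives and ended without saline replicate 1 (0.0534), and the difference held in 12 of 16. The all-gene shares between genotypes under leonurine were 6.99% called higher and 5.25% called lower. Among the 10, Pltp was called higher there in the labelled knockouts (17 of 17 alternatives) and Fgb lower (12 of 17). Of 7 tested JNK and cytokine genes known to lower Cyp7a1, none was called in response to leonurine. Jun alone was called between genotypes under leonurine, lower in the labelled knockouts (-1.39, limma adjusted p = 0.0333). That call held in 10 of 17 alternatives and ended without any 1 of the 4 leonurine libraries (0.0748 to 0.127).

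Among 13 tested transporters of bile acids and biliary lipids, 4 of them shared with the FXR-induced list, 4 fell with leonurine in wild type and none rose. Among all genes tested 4.72% were called lower and 1.9% higher. The cholesterol exporters Abcg8 and Abcg5, which pair at the canalicular membrane, gave the smallest p-values. Abcg8 was at 26.3, 36 and 34.8 FPKM in wild type with saline and at 6.60 and 3.83 FPKM with leonurine (-2.45 ± 0.22, limma adjusted p = 0.001). Abcg5 was at 45.6, 48.0 and 45.3 FPKM with saline and 12.4 and 6.36 FPKM with leonurine (-2.25 ± 0.24, limma adjusted p = 0.00209). Neither overlapped with saline, and both calls held in 18 of 18 alternatives. In the labelled knockouts they did not pass (0.23 ± 0.24 and 0.31 ± 0.26, limma adjusted p = 0.602 and 0.491), and their responses differed between genotypes (2.67 ± 0.33 and 2.56 ± 0.35, limma adjusted p = 0.00396 and 0.00701), each in 16 of 16 alternatives. The uptake carrier Slc10a1 (NTCP) also responded differently (1.49 ± 0.34, limma adjusted p = 0.0451), a call that held in 5 of 16 alternatives. With it, 3 of the 13 were called higher for the difference, against 1.71% of all genes tested. In the labelled knockouts 1 of the 13 fell with leonurine, against 1.49% of all genes tested called lower. This was the uptake carrier Slco1a1, which is known to be male-biased. Its level went from 97.0 and 35.7 FPKM to 1.91 and 3.39 FPKM (-4.07 ± 0.51, limma adjusted p = 0.00328). For Slco1a1 too, leonurine and sex cannot be told apart. Under leonurine 6 of the 13 were higher in the labelled knockouts and 1 was lower, against 6.99% and 5.25% of all genes tested. Without labelled-knockout leonurine replicate 1 these counts were 2 and 0, and the count of falls in wild type ran from 2 to 8 when 1 library at a time was left out, lowest without leonurine replicate 2 or any 1 of the saline libraries and highest without leonurine replicate 1.

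The clock factors that act on Cyp7a1 changed in wild type in both directions: of 9 tested, 4 fell and 1 rose with leonurine. For all genes tested the shares were 4.72% called lower and 1.9% called higher. Dbp, the D-box activator of Cyp7a1, was at 23.9, 43.0 and 36.6 FPKM with saline and 5.73 and 0.960 FPKM with leonurine (-3.25 ± 0.45, limma adjusted p = 0.00669). Its relatives Hlf (-1.04, 0.00792) and Tef (-1.44, 0.0244) fell as well, with Nr1d2, the repressor REV-ERB-beta (-1.07, 0.0268). The calls of Dbp and Hlf held in 17 of 18 alternatives, those of Tef and Nr1d2 in 11. Nfil3, a repressor that competes for the D-box, rose (1.39, limma adjusted p = 0.0385), a call that held in 8 of 18 alternatives. Under leonurine 3 of the 9 were called higher in the labelled knockouts than in wild type (Dbp, Hlf and Tef) and 2 lower (Clock and Nfil3). The shares over all genes tested were 6.99% and 5.25%. The calls of Dbp, Hlf and Clock held in 17 of 17 alternatives, that of Tef in 15 and that of Nfil3 in 6. None of the 9 was called in response to leonurine in the labelled knockouts. Dbp was at 32.7 and 32.6 FPKM there with saline and at 54.1 and 36.1 FPKM with leonurine, and its response differed between genotypes (3.68 ± 0.67, limma adjusted p = 0.0218). Hlf also differed (1.02 ± 0.23, limma adjusted p = 0.0426), against 1.71% of all genes tested called higher for the difference. These differences held in 9 and 5 of 16 alternatives. Both ended without wild-type saline replicate 2 or 3, either labelled-knockout saline library or labelled-knockout leonurine replicate 1 (0.0558 to 0.108).

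**Figure D3:**
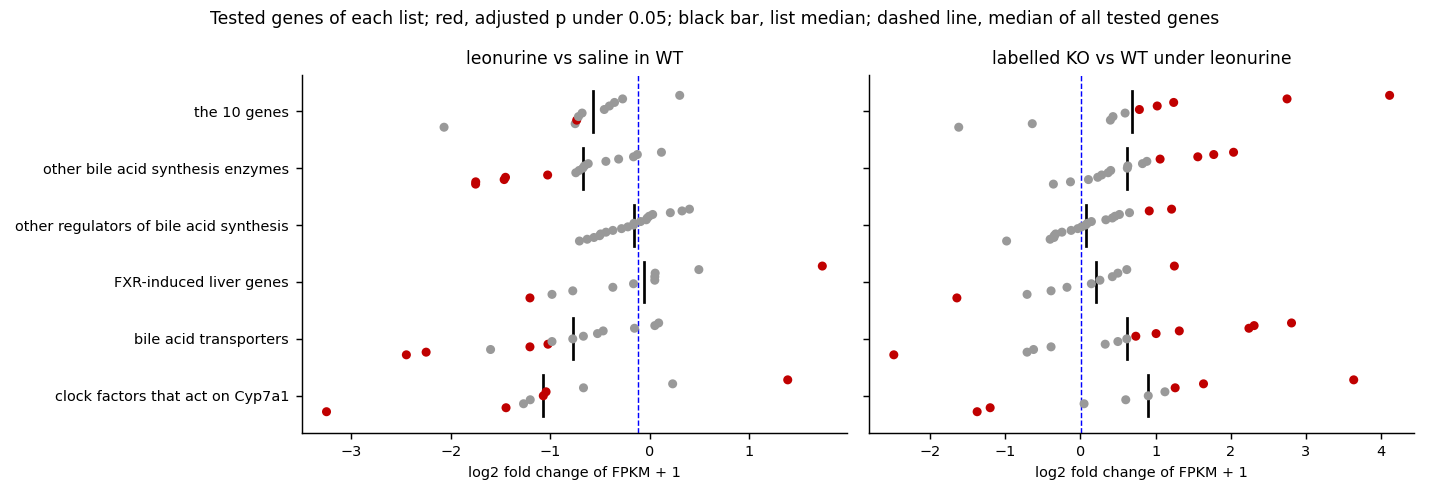
Log2 differences of each tested gene of the pathway lists (x axis), with the 10 genes in the top row. The left panel gives leonurine against saline in wild type and the right panel labelled knockouts against wild type under leonurine. Red points are called, black bars are list medians and the dashed line is the median of all genes tested. Of 15 other synthesis enzymes 5 are called lower in the left panel and 4 higher in the right, against 4.72% and 6.99% of all genes tested.

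The genes with the pattern most like each called gene over the 9 libraries were taken by Pearson's r of log2(FPKM + 1), as a description. For Cyp7a1 these were Gsap (0.993), Abhd14b (0.990) and Asgr2 (0.983). Cyp8b1 was most like Snx20 (0.940), Cdkn1c (0.915) and Smim24 (0.912), and Cyp7b1 most like Rasa1 (0.965), Tmtc3 (0.964) and Plaa (0.953). Hsd3b7 came closest to Pbld1 (0.962), Ugt1a1 (0.955) and Agxt (0.951). Cyp27a1 came closest to Cyp4f13 (0.979), Vps9d1 (0.979) and Pcyt2 (0.975), and Slc27a5 to Amdhd1 (0.984), Pigr (0.977) and Serpinc1 (0.977). The 9 points share 4 groups and the library totals, and no p is given.

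**Figure D4:**
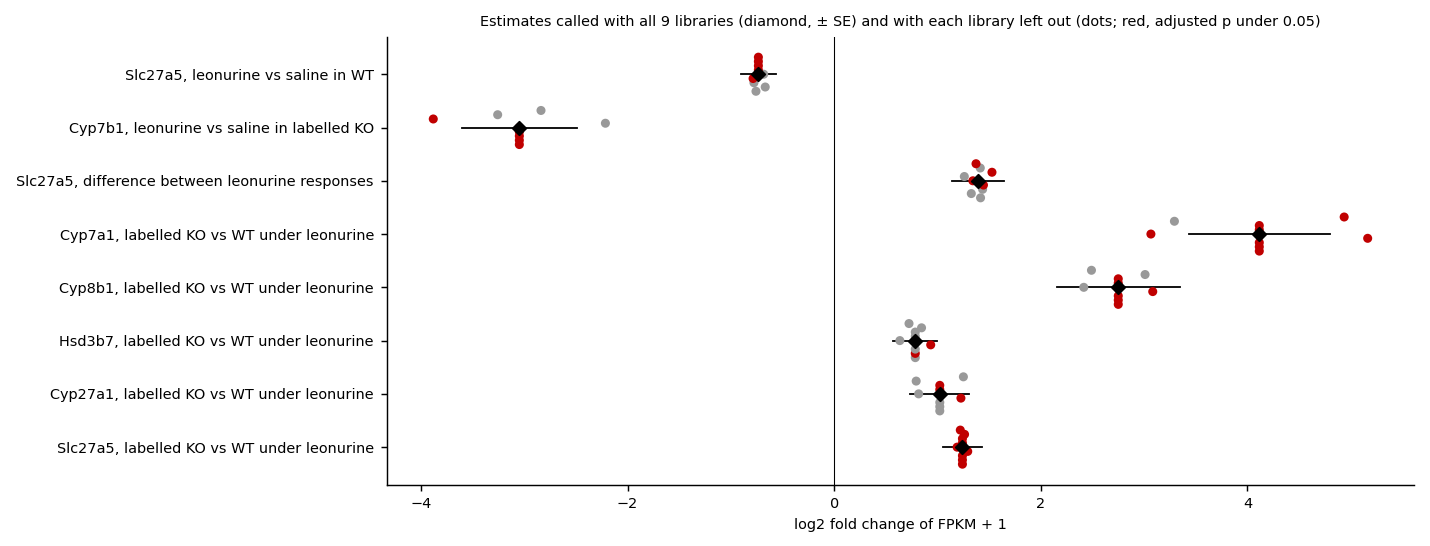
Log2 differences (x axis) that were called with all 9 libraries (diamonds, ± SE) and their values with 1 library left out at a time (dots, red where still called). For Cyp7a1 under leonurine the labelled-knockout excess is 4.11 with all libraries and 3.29 without labelled-knockout leonurine replicate 1.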

How the data were processed

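Liver RNA of 9 libraries was analysed. The authors deposited 1 table of FPKM values for 16857 genes, and per the submitters' processing notes fastp, HISAT2, HTSeq, R 3.2.0 and the build mm10 were used. The sources used here do not give their roles, the annotation, a gene filter or whether strand was used. Columns were matched to samples by the RNA number in the descriptions, and groups come from the titles. FPKM divides by the library total, so a few abundant transcripts can lower all other values.

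Genes with FPKM of at least 1 in at least 2 libraries (10451) were fitted with limma 3.58.1 in R 4.3.3 on log2(FPKM + 1), with an intensity trend and 1 mean per group over all 9 libraries (5 residual and 4.42 prior degrees of freedom). This scale understates the change of low genes. P-values were adjusted (Benjamini-Hochberg) over all genes tested in each of 5 comparisons. The script was tested on simulated data. Whole fragments were recovered from the steps of the FPKM values for 16085 of 16085 genes searched (above 0 in at least 2 libraries), within a tolerance of 0.0001, and gave the depths. No 2 libraries agreed within sampling noise. The 10 genes and all lists were chosen with earlier results of these data known. Genes are mostly named by rule: the 10 genes, up to 4 called genes per list and comparison by smallest p (otherwise the 1 with the smallest p), and the 3 most similar genes. The rule was not kept throughout. Called genes of some lists and comparisons are only counted or left out, and in others more are named. The hepatocyte markers Alb, Apoa1, Cps1, Tat and Serpina1a are named without being called. Positions and overlaps use GENCODE vM21 (GRCm38), and promoters are RefSeq's. Alternatives were a pseudocount of 0.1, median-ratio scaling, quantile normalization, no filter, a mean FPKM of at least 5, replicate number as a block, array weights, only the groups compared, leaving out both labelled-knockout leonurine libraries where unused, and leaving out each library. These include leaving out libraries of groups that a comparison does not use, which leaves its estimate unchanged and changes only the shared spread.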

Additional observations from a re-analysis of the deposited data

Results flagged for a closer look

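Slc27a5, the bile acid CoA ligase, responded to leonurine differently in the genotypes: the difference of the responses was 1.39 ± 0.25 on the log2 scale (limma adjusted p = 0.0218). This call held in 9 of 16 alternatives. Both wild-type leonurine libraries were below the 3 saline libraries, and both labelled-knockout leonurine libraries were above the 2 saline libraries. The labelled-knockout leonurine libraries also lack Y-linked transcripts, and the part of sex in this difference cannot be told apart. The 6 hepatocyte markers, whose sum is mostly Alb, summed to 33915 to 57274 FPKM in the wild-type leonurine libraries. In the labelled-knockout leonurine libraries they summed to 80306 to 82363 FPKM. Among the 6, only Tat had a lower mean there (590.9 against 733.3 FPKM). The part of these markers in this difference was not tested.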

How the results depend on the processing

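Of 860 repeats of the estimates of the 10 genes, 771 kept direction and side of the threshold, 53 lost a call, 18 gained one and 18 changed sign, all of the last being estimates that were not called. Most of the 50 main estimates were not called and could not lose a call. The 53 losses are therefore a larger share of the repeats of called estimates than of all 860. Under other scalings the sign changed for Baat in the labelled knockouts (0.087, median-ratio scaling), and with quantile normalization for Nr1h4 in wild type (0.00041) and, between genotypes under saline, for Cyp8b1 (-0.035) and Nr1h4 (-0.0038). Leaving out 1 library at a time gave sign changes within these ranges: for the difference between responses, Nr0b2 (-0.84 to 0.28), Baat (-0.10 to 0.57); between genotypes under saline, Hsd3b7 (-0.16 to 0.10), Nr5a2 (-0.083 to 0.12), Cyp8b1 (-1.08 to 1.28), Cyp7b1 (-0.15 to 1.51); for leonurine in the labelled knockouts, Nr1h4 (-0.069 to 0.11); between genotypes under leonurine, Nr0b2 (-0.11 to 0.98). For every sign change the cause was not tested.

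Calls over all genes for leonurine in wild type were 202 with no filter. In the labelled knockouts they were 111 with array weights, 136 at a mean FPKM of at least 5 and 112 with only the groups compared. For the difference they were 209 with array weights, 600 with median-ratio scaling and 133 with no filter. Between genotypes under saline they were 1 at a mean FPKM of at least 5 or a pseudocount of 0.1, 4 and 5 under the 2 scalings, 61 with only the groups compared and 0 without both labelled-knockout leonurine libraries. Under leonurine they were 593 with array weights and 303 with only the groups compared. Leaving out 1 library gave 147 to 1351 in wild type, 92 to 317 in the labelled knockouts, 108 to 829 for the difference, and 0 to 18 and 335 to 1554 between genotypes under saline and leonurine. Among the 10 genes, the wild-type count fell from 1 to 0 with either scaling, no filter or only the groups compared (0 to 3 leaving out 1 library). The labelled-knockout count fell to 0 with array weights, no filter or quantile normalization (0 to 1), and under median-ratio scaling the 1 call was a different gene in the other direction. The difference had 3 with median-ratio scaling (0 to 3). Under leonurine the genotype count was 3 with array weights and 2 with no filter or only the groups compared (1 to 6).

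Whether the replicate numbers pair the libraries was not settled. The 12 same-number pairs had correlations of deviations from 0.02 to 0.154, all 12 positive and 3 over 0.1. In groups of 2 libraries the deviations mirror each other, so several of these values repeat. Different-number pairs were not compared, so the check cannot decide whether the numbers pair libraries. With the replicate block, calls over all genes were 75 in wild type, 124 in the labelled knockouts, 102 for the difference, 0 between genotypes under saline and 889 under leonurine. Calls among the 10 genes with the block were 0, 0, 0, 0 and 3, with Cyp7b1 in the labelled knockouts at an adjusted p of 0.0682, and Nr5a2 under saline had an estimate of 0.12. At 77 fragments or more per gene and library, counting error is small beside the spread between libraries. With 2 or 3 libraries a group, estimates that missed the threshold have wide intervals.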
